A study of Mus musculus with 7 samples.

Results

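This account follows 34 genes of the peroxisome through inguinal white fat of mice labelled TM4SF5-/- and of wild-type mice. The genes were picked by name, and each symbol was looked up in a count table of 29517 gene identifiers. They comprise 13 peroxins and 21 genes of peroxisomal lipid handling. The lipid genes split into 10 of β-oxidation, 2 of α-oxidation, 2 that prepare shortened acyl chains for export, 4 of membrane transport and 3 of ether lipid synthesis. All 34 were detected and all 34 passed the filter on low counts.

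Poly(A) RNA was sequenced from 3 libraries of Tm4sf5 knockout mice (genotype TM4SF5-/-, KO) and 4 libraries of wild-type mice (WT). Both groups were of the C57BL/6 strain, were untreated, ate standard chow and lived on a 12-h light and 12-h dark cycle at 22 °C. The design text names 3 replicates for each condition, whereas 4 libraries are labelled WT, and all 7 were used. Not given in the sources used here were the deleted part of the gene and the age, sex, litter and number of animals per library. Each library keeps the number of its label (KO 1 to KO 3 and WT 1 to WT 4).

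Peroxisomes are small organelles bounded by a single membrane. They shorten very-long-chain and branched fatty acids, start the synthesis of ether lipids such as plasmalogens, and break down hydrogen peroxide. Their enzymes are made in the cytosol and carried in by receptors, which the peroxins load, dock and recycle. Brown and beige adipocytes are known to be rich in peroxisomes, and many peroxisomal genes respond to the nuclear receptor PPARα.

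Library totals ran from 49775077 to 60241436 counts. Values below are CPM, read counts scaled to a common library size with TMM factors, which set most genes level between libraries. An ± is a standard deviation (n = 3 for KO, n = 4 for WT). P-values are from edgeR's quasi-likelihood test across 19185 genes. Tm4sf5 itself had 7, 6 and 17 counts in KO 1 to KO 3, against 33, 45, 47 and 20 counts in WT 1 to WT 4, so KO 3 and WT 4 overlapped in CPM (0.353 and 0.322). On the log2 scale KO stood at -1.35 relative to WT (SE 0.50, edgeR adjusted p = 0.177), and such low counts check the genotype labels only weakly. All 7 white adipocyte markers examined were detected in every library. KO 1 lay farthest out on the first principal component, which held 35.7% of the variance, and 7 skeletal muscle markers summed to 13.5 to 134 CPM in KO libraries and to 2.74 to 1133 CPM in WT libraries, with the highest sums in WT 4 and WT 2.

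Most peroxisomal genes were higher in KO fat, and Far1, which makes the fatty alcohols of ether lipids, was lower. At an unadjusted edgeR p under 0.05, 26 of the 34 genes were higher in KO, against 12.3% of all genes tested, and 1 was lower, against 9.51%. After edgeR's adjustment over all genes no member passed, nor did any other gene (0 of 19185, 0%), and the smallest adjusted p of a member was 0.0956. Over all genes 4187 had an unadjusted p under 0.05 (21.8%), while DESeq2 called 2120 after adjustment (11.1%) and limma-voom 1. A positive log2 fold change was found for 32 of the 34 genes, against 46.9% of all genes, and for 28 when libraries were scaled by total counts alone. The median log2 fold change was 0.73 over the 34 genes and -0.04 over all genes tested. KO and WT libraries did not overlap for 26 of the 34 genes, against 20.3% of all genes. KO lay wholly above WT for 25 of them, against 11.4% of all genes, and wholly below WT for 1, against 8.92%. DESeq2 gave an adjusted p under 0.05 to 21 higher members, against 6.29% of all genes, and to 1 lower member, against 4.76%.

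**Figure D1:**
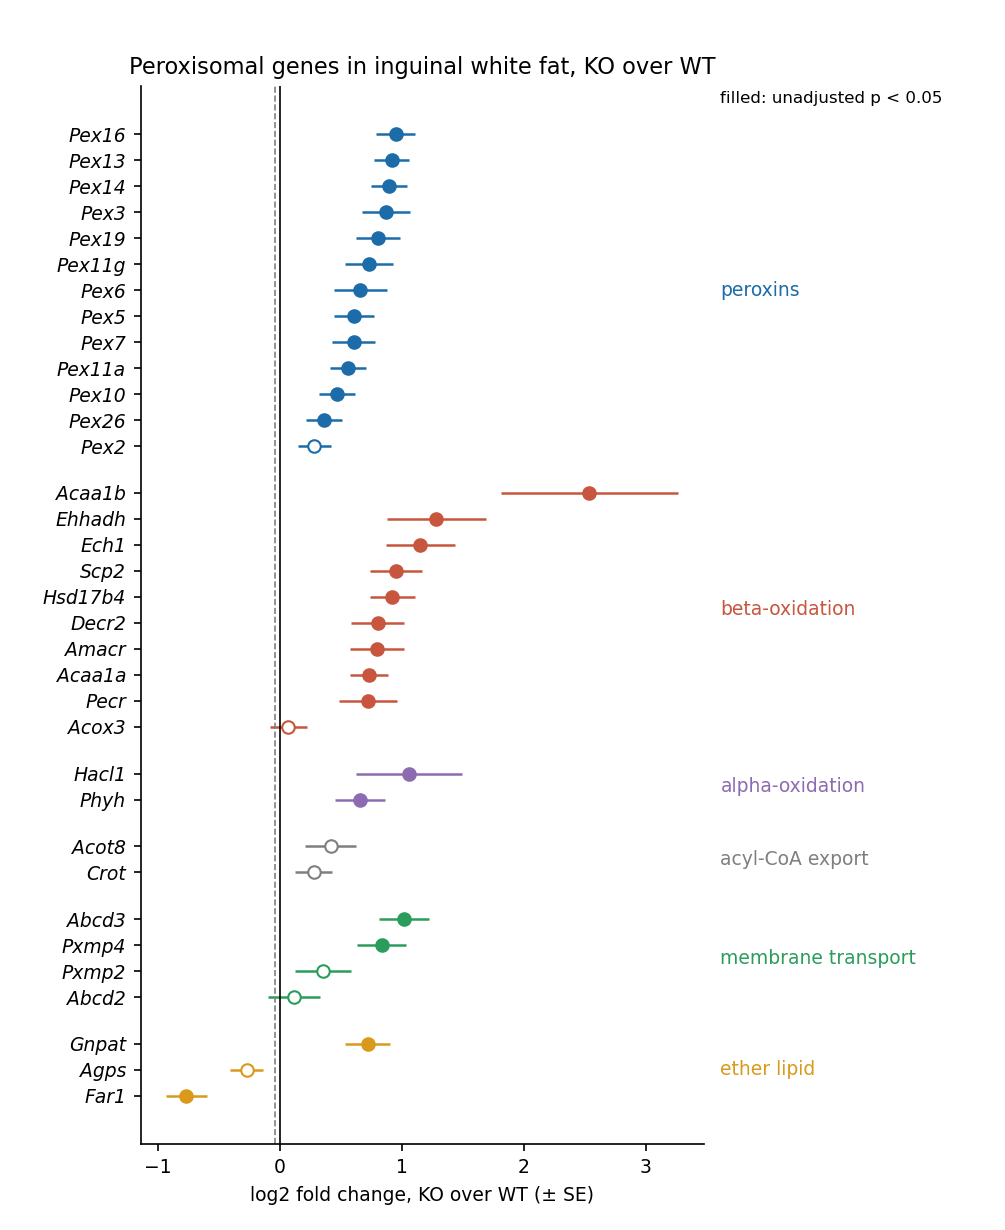
Log2 fold change of KO over WT with its standard error for each of the 34 genes, grouped by role, with filled points at an unadjusted edgeR p under 0.05 and a dashed line at the median of all genes tested (-0.04). With this TMM scaling all 13 peroxins lie right of 0, whereas with total counts alone Pex2 turned to -0.053, and Far1 and Agps lie left of 0.

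The scaling bears on the size of this difference. Mitochondrially encoded messages took 16.1% to 18.9% of counts in KO libraries and 8.07% to 12.1% in WT libraries. Scaled by total counts alone, the genes tested had a median of -0.35 on the log2 scale, and then 694 genes were higher (3.62%) and 4871 lower (25.4%) at an unadjusted p under 0.05, against 2363 and 1824 with TMM. Under that scaling 15 of the 34 members were higher and 2 were lower, and the members' groups did not overlap for 11 genes with KO above (3.06% of all genes) and for 2 with KO below (23.7% of all genes). The calls of Amacr, Hacl1, Pecr, Phyh, Pex5, Pex6, Pex7, Pex10, Pex11a, Pex11g and Pex26 ended under that scaling. Besides, 15 of the 34 genes overlap another RefSeq gene on the genome and may share reads with it, namely Pex3, Pex5, Pex11a, Pex11g, Pex13, Pex14, Acaa1b, Acox3, Hsd17b4, Pecr, Scp2, Acot8, Crot, Agps and Far1.

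Markers of several cell types differed between the groups as well. At an unadjusted p under 0.05, 12.3% of all genes were higher and 9.51% lower with TMM. With total counts alone these shares were 3.62% and 25.4%. The summed level of the 7 white adipocyte markers was 15303 to 27608 CPM in KO libraries and 9387 to 14321 CPM in WT libraries, with 4 of 7 higher in KO at an unadjusted p under 0.05 (2 of 7 with total counts alone). For the 7 brown and beige markers the sum was 685 to 2664 CPM in KO and 189 to 1056 CPM in WT, with 3 of 7 higher. The 7 macrophage markers summed to 428 to 678 CPM in KO and 1260 to 1838 CPM in WT, with 7 of 7 lower. None of the 7 skeletal muscle markers, of 7 B and T cell markers (241 to 681 CPM in KO, 283 to 1072 CPM in WT) and of 5 endothelial markers (410 to 792 CPM in KO, 270 to 1008 CPM in WT) had an unadjusted p under 0.05 with TMM. Of 5 fibroblast and progenitor markers, at a sum of 481 to 1549 CPM in KO and 517 to 4378 CPM in WT, 1 was lower (3 with total counts alone). Among 3 measured markers of mammary epithelium and keratinocytes 2 were higher, at a sum of 1.58 to 10.1 CPM in KO and 1.04 to 2.43 CPM in WT, while Krt14 and Krt5 did not pass the filter. Among 5 hepatocyte markers, at a sum of 981 to 2312 CPM in KO and 185 to 2136 CPM in WT, 1 was lower (3 with total counts alone), and the median log2 fold change was -2.42. The lower one was Ttr, which had no count in any KO library or in WT 4. Cyp2e1 had 954 to 2268 CPM in KO and 89.5 to 2120.1 CPM in WT. It made up nearly all of the sum in the KO libraries, WT 1 and WT 4. In WT 2 and WT 3, Alb added 74.0 and 103 CPM to sums of 185 and 328 CPM. Cyp2e1 was the single hepatocyte marker of the 5 with a positive log2 fold change (1.16, SE 1.00). The part of these markers in the peroxisomal differences was not tested. Without WT 2 and WT 4, the libraries with the most muscle RNA, 22 of the 34 genes were higher, and without KO 1 it was 21. Over all genes tested, 1636 of 19133 and 1383 of 19924 were higher in these settings, against 2363 of 19185 with all libraries. In whole tissue, fewer cells of a type and less RNA per cell cannot be told apart.

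The peroxins form the machinery that builds the organelle. At an unadjusted p under 0.05, 12 of the 13 were higher in KO and 0 lower, against 12.3% and 9.51% of all genes. The median log2 fold change of the peroxins was 0.66. With total counts alone 5 of the 13 were higher, against 3.62% of all genes, with a median of 0.33. All 13 had every KO library above every WT library with TMM scaling, against 11.4% of all genes. The peroxin with the smallest p was Pex13, which with Pex14 forms the dock at the membrane where loaded import receptors arrive. Pex13 stood at 187, 145 and 151 CPM in KO 1 to KO 3, against 90.4, 82.2, 77.4 and 92.3 CPM in WT 1 to WT 4. The lowest KO library thus lay well above the highest WT library, and the log2 fold change was 0.91 by edgeR (SE 0.14, adjusted p = 0.0956).

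Pex14 had 102, 72.2 and 90.1 CPM in KO 1 to KO 3, against 51.3, 47.8, 43.9 and 47.4 CPM in WT 1 to WT 4. The WT libraries were tight, at 47.6 ± 3.02 CPM, and the KO libraries more spread, at 88.3 ± 15.2 CPM. Its log2 fold change was 0.89 by edgeR (SE 0.15, adjusted p = 0.0956).

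Pex16, Pex19 and Pex3 place proteins into the peroxisomal membrane. Pex19 is the cytosolic chaperone of these membrane proteins, and Pex3 and Pex16 act at the membrane. Pex16 had 169.9, 125 and 151 CPM in KO 1 to KO 3, against 64.0, 87.3, 78.5 and 78.8 CPM in WT 1 to WT 4. Its log2 fold change was 0.95 (SE 0.16). Pex19 had 377, 273 and 251 CPM in KO 1 to KO 3, against 191, 151, 166 and 181 CPM in WT 1 to WT 4. The groups did not overlap for either gene, and Pex19 had a log2 fold change of 0.80 (SE 0.18). Pex3 averaged 64.4 ± 8.97 CPM in KO and 35.3 ± 7.98 CPM in WT, a log2 fold change of 0.87 (SE 0.20). These 3 genes and both docking genes were higher at an unadjusted p under 0.05 in all 16 settings tried, the reported one included.

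The import receptors and the complexes that recycle them had log2 fold changes of 0.28 to 0.66. Pex5, the receptor for most matrix enzymes, averaged 130.0 ± 17.7 CPM in KO and 85.4 ± 13.1 CPM in WT (log2 fold change 0.61, SE 0.16). Pex7, the receptor for the few enzymes with an amino-terminal signal, averaged 28.8 ± 6.48 CPM in KO and 19.0 ± 1.75 CPM in WT (0.60, SE 0.18). Pex6, an ATPase that pulls used receptors from the membrane, had a log2 fold change of 0.66 (SE 0.22), a call that ended without KO 1, and Pex26, its membrane anchor, had 0.36 (SE 0.15). Pex26 is the least secure of these: it had an edgeR adjusted p of 0.217, and its unadjusted call ended without any 1 of KO 1, KO 2, WT 1, WT 2, WT 3 and WT 4. Of the ubiquitin ligases that mark receptors for recycling, Pex10 had a log2 fold change of 0.47 (SE 0.15, edgeR adjusted p = 0.140). Pex2 had 0.28 (SE 0.14, edgeR adjusted p = 0.274), at 48.9, 39.2 and 39.1 CPM in KO against 33.6, 39.0, 33.4 and 33.7 CPM in WT, and with total counts alone its value was -0.053.

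Pex11 proteins elongate and divide peroxisomes. Pex11a, the form known to respond to PPARα, had 78.2, 65.7 and 88.6 CPM in KO 1 to KO 3, against 47.0, 56.9, 57.9 and 48.9 CPM in WT 1 to WT 4, a log2 fold change of 0.56 (SE 0.15). Pex11g had 21.5, 14.3 and 16.1 CPM in KO 1 to KO 3, against 12.6, 8.88, 9.99 and 10.1 CPM in WT 1 to WT 4, a log2 fold change of 0.73 (SE 0.20). Both were higher in every KO library than in any WT library. The log2 ratio of Pex11a over Pex11g was 2.14 ± 0.294 in KO and 2.29 ± 0.334 in WT, a difference of -0.15 (two-sided exact permutation p = 0.486 over 35 splits, 0.486 after adjustment over 5 ratios).

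**Figure D2:**
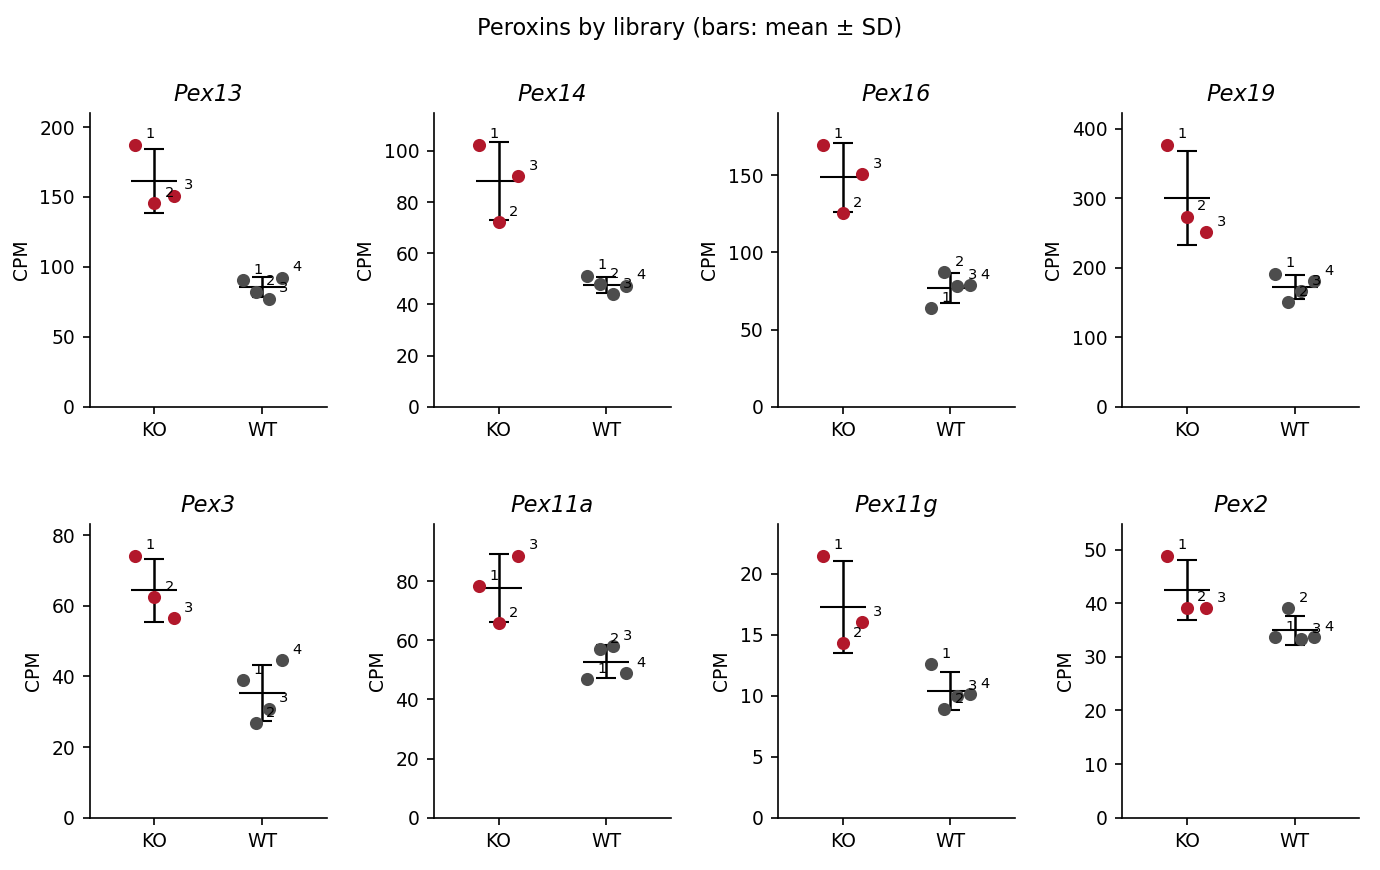
CPM of 8 peroxins in each library, with KO left of WT, point labels giving the replicate number and bars the mean ± SD. In each panel every KO point lies above every WT point, by the least for Pex2, where KO 3 at 39.1 CPM lies next to WT 2 at 39.0 CPM.

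The genes of peroxisomal β-oxidation, which removes acetyl units from long, branched or unsaturated acyl chains, showed the same direction with a wider range. At an unadjusted p under 0.05, 9 of 10 were higher in KO and 0 were lower, with a median log2 fold change of 0.86, and with total counts alone 7 were higher. Hsd17b4, the D-bifunctional enzyme that hydrates and dehydrogenates straight and branched acyl chains, had 462, 309 and 350 CPM in KO 1 to KO 3, against 221, 165, 203 and 200.1 CPM in WT 1 to WT 4. All KO libraries exceeded all WT libraries, and the log2 fold change was 0.92 by edgeR (SE 0.18, adjusted p = 0.0956).

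Ehhadh, the L-bifunctional counterpart that responds to PPARα, was more variable. It had 229, 136 and 140.4 CPM in KO 1 to KO 3, against 94.0, 33.5, 45.3 and 104 CPM in WT 1 to WT 4. WT 1 and WT 4 were more than 2-fold above WT 2 and WT 3, and its log2 fold change was 1.28 by edgeR (SE 0.41, adjusted p = 0.139), and its unadjusted call ended without KO 1 (1.01). The log2 ratio of Ehhadh over Hsd17b4 was -1.17 ± 0.151 in KO and -1.65 ± 0.666 in WT, and the difference of 0.48 lay within the spread of the WT libraries (exact permutation p = 0.371, adjusted p = 0.464 over the 5 ratios).

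Acaa1a and Acaa1b encode the 2 mouse copies of the thiolase that closes the cycle. Acaa1a had 168, 115 and 154 CPM in KO 1 to KO 3, against 88.2, 89.5, 81.3 and 91.6 CPM in WT 1 to WT 4 (log2 fold change 0.73, SE 0.15, edgeR adjusted p = 0.0956). Acaa1b spread over more than an order of magnitude, with 121, 53.4 and 365 CPM in KO 1 to KO 3, against 26.0, 14.6, 17.4 and 65.9 CPM in WT 1 to WT 4. KO 2 lay below WT 4, so the groups overlapped.

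The log2 fold change of Acaa1b, 2.54 (SE 0.73, edgeR adjusted p = 0.119), was the largest among the 34 genes, and without KO 3 it was 1.53. The log2 ratio of Acaa1b over Acaa1a was -0.47, -1.09 and 1.24 in KO 1 to KO 3, so that Acaa1b exceeded its sister gene in KO 3 alone, against -1.74, -2.58, -2.19 and -0.47 in WT 1 to WT 4. The difference of 1.64 did not pass (exact permutation p = 0.114, adjusted p = 0.190), and it was 0.96 without KO 3. The 2 genes lie on chromosome 9 of mm10, Acaa1b at 119148043 to 119157093 and Acaa1a at 119341028 to 119350296. Of the 50-base words in Acaa1b's coding transcripts 35.5% occur also in Acaa1a's, so part of the reads may have been split between them by the authors' counting.

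Scp2, whose products carry lipids and act as the thiolase for branched chains, had 1009, 683 and 934 CPM in KO 1 to KO 3, against 477, 373, 405 and 557 CPM in WT 1 to WT 4. The groups did not overlap and the log2 fold change was 0.95 (SE 0.21). Ech1, a dienoyl-CoA isomerase found in peroxisomes and mitochondria, had 660, 334 and 488 CPM in KO 1 to KO 3, against 305, 174, 185 and 226 CPM in WT 1 to WT 4, a log2 fold change of 1.15 (SE 0.28). KO 2 lay only slightly above WT 1 for Ech1.

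The auxiliary enzymes Decr2, a dienoyl-CoA reductase, Amacr, a racemase of branched acyl chains, and Pecr, an enoyl-CoA reductase, had log2 fold changes of 0.80, 0.79 and 0.72. Every KO library exceeded every WT library for each of them, although Pecr lost its unadjusted call without KO 1. Acox3, an oxidase that starts the breakdown of branched acyl chains, stood apart from the group. It had 87.8, 84.7 and 82.2 CPM in KO 1 to KO 3, against 90.5, 63.5, 79.8 and 90.2 CPM in WT 1 to WT 4, and its log2 fold change was 0.07 by edgeR (SE 0.15, adjusted p = 0.816). Its sign turned with total counts alone (-0.25) and without WT 2 (-0.032).

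The α-oxidation pair removes a single carbon from phytanic acid and other acyl chains with a methyl branch. Phyh, the hydroxylase, had 297, 204 and 167 CPM in KO 1 to KO 3, against 152, 127, 133 and 153 CPM in WT 1 to WT 4, a log2 fold change of 0.66 (SE 0.21, edgeR adjusted p = 0.134). Hacl1, the lyase that follows, had 96.3, 46.4 and 85.5 CPM in KO 1 to KO 3, against 64.2, 18.5, 23.6 and 39.97 CPM in WT 1 to WT 4. KO 2 lay below WT 1, and the log2 fold change of 1.06 (SE 0.44) had an edgeR adjusted p of 0.213. Its unadjusted call ended without any 1 of KO 1, KO 3, WT 2, WT 3 and WT 4, at log2 fold changes of 0.84 to 1.10. Hacl1 resembled Ehhadh in that WT 1 and WT 4 exceeded WT 2 and WT 3.

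Neither gene that readies shortened acyl chains for export passed the unadjusted threshold. Crot, the carnitine acyltransferase for medium chains, had 72.7, 65.4 and 51.4 CPM in KO 1 to KO 3, against 56.5, 46.4, 54.4 and 51.5 CPM in WT 1 to WT 4 (log2 fold change 0.28, SE 0.15, edgeR adjusted p = 0.322), and with total counts alone its value was -0.053. Acot8, a thioesterase that frees acyl chains from coenzyme A, had 14.1, 9.77 and 17.3 CPM in KO 1 to KO 3, against 9.47, 10.7, 9.62 and 11.3 CPM in WT 1 to WT 4 (0.42, SE 0.21, edgeR adjusted p = 0.286). Crot passed that threshold without KO 3 (0.43) and Acot8 without KO 2 (0.63).

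**Figure D3:**
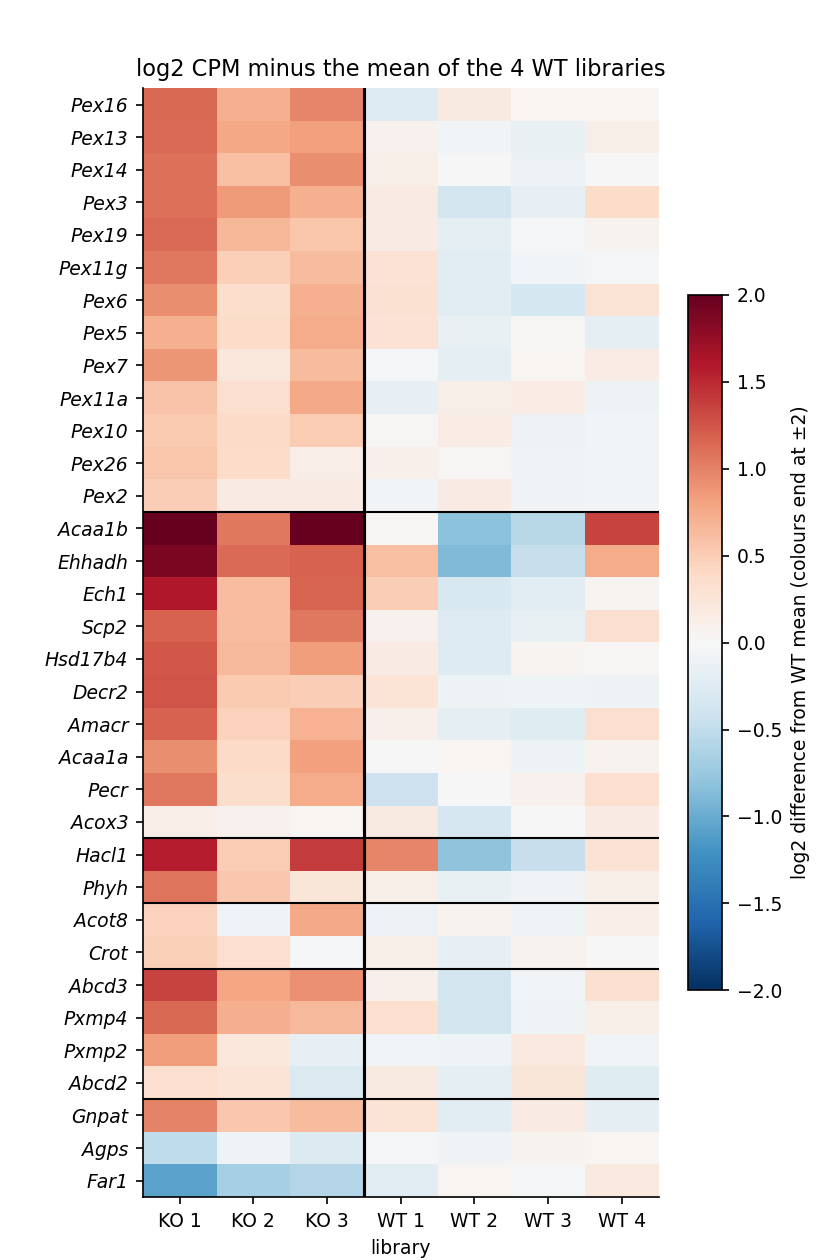
Log2 CPM of the 34 genes in each library after subtraction of the WT mean, with KO libraries left of WT libraries and lines between the role groups (peroxins, β-oxidation, α-oxidation, acyl-CoA export, membrane transport, ether lipid). KO 1 is the highest KO library for 28 genes and KO 2 the lowest for 21, and Far1 is blue in all 3 KO libraries.

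Of the transporters and membrane proteins, 2 of 4 were higher at an unadjusted p under 0.05, against 12.3% of all genes. Total counts alone also gave 2 of 4, against 3.62% of all genes. Abcd3, an ABC transporter that brings branched and bile-acid-type acyl chains into the organelle, had 313, 212 and 231 CPM in KO 1 to KO 3, against 131, 95.4, 118 and 153 CPM in WT 1 to WT 4. All KO libraries were above all WT libraries, and the log2 fold change was 1.02 by edgeR (SE 0.21, adjusted p = 0.0956). Abcd2, the related transporter for very-long-chain and polyunsaturated acyl chains, had 437, 420 and 285 CPM in KO 1 to KO 3, against 394, 305, 413 and 295 CPM in WT 1 to WT 4. The KO values lay on both sides of the WT range, and the log2 fold change was 0.11 by edgeR (SE 0.21, adjusted p = 0.775), which turned to -0.21 with total counts alone.

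The log2 ratio of Abcd2 over Abcd3 was 0.48, 0.98 and 0.31 in KO 1 to KO 3, against 1.58, 1.67, 1.80 and 0.94 in WT 1 to WT 4. WT 4 lay among the KO libraries, and the difference of -0.91 did not pass (exact permutation p = 0.0857, adjusted p = 0.190). The gap between these transporters was therefore not separated from the spread between libraries.

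Of the peroxisomal membrane proteins, Pxmp4 had 119, 89.0 and 84.5 CPM in KO 1 to KO 3, against 67.9, 42.0, 50.7 and 58.7 CPM in WT 1 to WT 4. It did not overlap between groups and had a log2 fold change of 0.83 (SE 0.20, edgeR adjusted p = 0.0967). Pxmp2, which forms a pore for small solutes, had 35.4, 22.8 and 17.6 CPM in KO 1 to KO 3, against 19.1, 18.7, 22.6 and 19.0 CPM in WT 1 to WT 4. Its KO values straddled the WT range, and its log2 fold change was 0.35 by edgeR (SE 0.23, adjusted p = 0.405), and without KO 3 it passed the unadjusted threshold at 0.58.

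**Figure D4:**
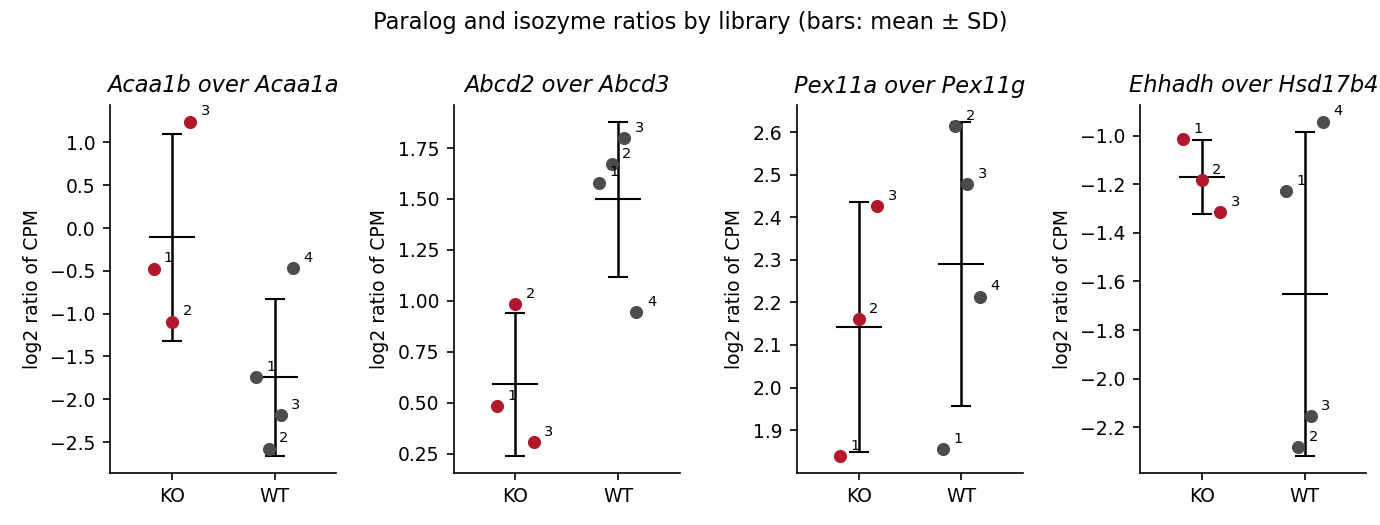
Log2 ratio of CPM for 4 pairs of related genes in each library, with KO left of WT, point labels giving the replicate number and bars the mean ± SD. The groups overlap in all 4 panels, and none of the 4 ratios has an exact permutation p under 0.05, before or after adjustment over the 5 ratios computed. The smallest p that 35 splits allow is 0.0286, so a single ratio at it could not pass after that adjustment.

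The 3 genes of ether lipid synthesis differed in direction. Gnpat and Agps carry out the opening steps inside the peroxisome, acylation of dihydroxyacetone phosphate and exchange of the acyl chain for a fatty alcohol. Far1, on the outer face of the membrane, supplies that alcohol and is regarded as the step that limits plasmalogen synthesis. Gnpat had 375, 275 and 293 CPM in KO 1 to KO 3, against 228, 161, 211 and 164 CPM in WT 1 to WT 4, a log2 fold change of 0.72 (SE 0.19, edgeR adjusted p = 0.105). Far1 had 34.1, 45.1 and 48.0 CPM in KO 1 to KO 3, against 62.4, 74.1, 69.9 and 82.6 CPM in WT 1 to WT 4. Every KO library was below every WT library, and the log2 fold change was -0.77 by edgeR (SE 0.17, adjusted p = 0.0957).

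Far1 was lower, and Gnpat higher, at an unadjusted p under 0.05 in each of the 16 settings. With total counts alone the log2 fold changes were -1.08 for Far1 and 0.39 for Gnpat. Agps had 38.7, 52.4 and 45.3 CPM in KO 1 to KO 3, against 53.2, 52.4, 57.9 and 56.6 CPM in WT 1 to WT 4. KO 2 and WT 2 were nearly equal, and the log2 fold change of -0.28 (SE 0.14, edgeR adjusted p = 0.281) passed the unadjusted threshold with total counts alone (-0.59) and without KO 2 (-0.37). The ratio of Gnpat to Far1 in CPM was 11.0, 6.10 and 6.11 in KO 1 to KO 3, against 3.65, 2.18, 3.02 and 1.99 in WT 1 to WT 4. This ratio was chosen after the values were seen and was not tested. Far1 and Agps each overlap another RefSeq gene (Far1os and Gm34861), whose reads cannot be told apart without the strand setting.

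**Figure D5:**
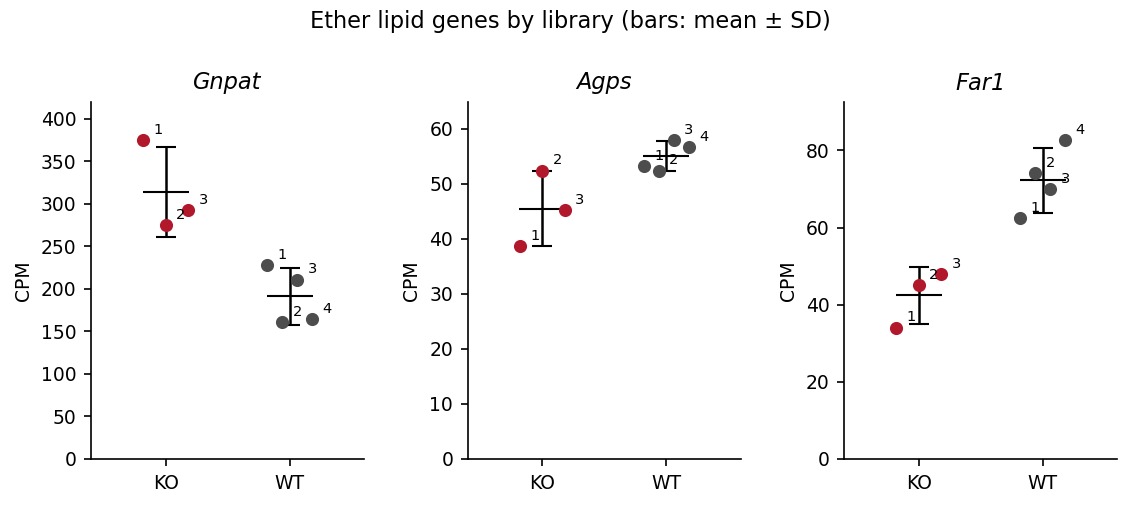
CPM of Gnpat, Agps and Far1 in each library, with KO left of WT, point labels giving the replicate number and bars the mean ± SD. KO lies wholly above WT for Gnpat and wholly below it for Far1, and the groups touch at 52.4 CPM for Agps.

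The sequences upstream of the ether lipid genes are shown because the genes differ in direction although they serve a single pathway. They come from RefSeq (GRCm38.p6), run 5′ to 3′ on the plus strand, and end at the base before the annotated gene start. Capitals mark CCAAT on either strand and the palindrome CACGTG, known as an E-box. The genes themselves span 113513719 to 113571506 on chromosome 7 (Far1), 124863033 to 124890057 on chromosome 8 (Gnpat) and 75832177 to 75931350 on chromosome 2 (Agps).
Far1, chr7:113513584-113513718: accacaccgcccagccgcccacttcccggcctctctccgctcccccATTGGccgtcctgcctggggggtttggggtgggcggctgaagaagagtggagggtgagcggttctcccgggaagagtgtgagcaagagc
Gnpat, chr8:124862783-124863032: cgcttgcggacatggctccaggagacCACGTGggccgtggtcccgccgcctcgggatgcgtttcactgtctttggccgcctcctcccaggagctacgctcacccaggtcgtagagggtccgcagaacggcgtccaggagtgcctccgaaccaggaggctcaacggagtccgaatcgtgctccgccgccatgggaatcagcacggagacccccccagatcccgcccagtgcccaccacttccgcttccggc
Agps, chr2:75831927-75832176: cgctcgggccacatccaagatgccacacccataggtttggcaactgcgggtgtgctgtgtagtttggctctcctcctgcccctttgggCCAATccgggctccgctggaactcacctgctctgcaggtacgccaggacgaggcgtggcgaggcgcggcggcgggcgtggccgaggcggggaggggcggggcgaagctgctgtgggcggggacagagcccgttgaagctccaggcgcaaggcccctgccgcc

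The stretch of Far1 is 135 bases long, and those of Gnpat and Agps are 250 bases each. Motifs were thus counted over unlike lengths. The stretches of Far1 and Agps hold 1 CCAAT each and that of Gnpat holds none, while CACGTG occurs once, in Gnpat. Both motifs were chosen after the values were seen, and a link of either to the direction was not tested. In the promoter windows of the same table, 250 bases before to 50 after a start site, CCAAT is present in 37.4% of 32851 windows and CACGTG in 7.15%. Among the 34 genes 28 had such windows, 32 in all. Of these windows 14 held CCAAT, in 13 genes, and 1 held CACGTG. The PPAR motif AGGTCANAGGTCA was searched on both strands with at most 1 mismatch. It occurred in 182 of all windows (0.554%) and in 0 of the 32 windows of the 28 genes, which says only that these letters are not in those windows.

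Levels of the 34 genes were compared per kilobase of exon. The length was that of all annotated exons of a gene in GENCODE vM21, merged. These need not be the models the authors counted on, and the places below depend on them. On that scale Scp2 was the most abundant, at 252 CPM per kilobase in KO and 130.3 in WT, followed by Ech1 at 216 in KO and 97.4 in WT and Phyh at 118 in KO and 74.6 in WT. The most abundant peroxins were Pex19, at 78.8 in KO and 45.2 in WT, and Pex16, at 83.8 in KO and 43.5 in WT, which did not differ from each other beyond their spread. Pex7 was last on that scale, at 2.38 CPM per kilobase in KO and 1.57 in WT. It has the greatest merged length of the 34 genes, 12092 bases. In plain CPM its KO mean of 28.8 lay above those of other peroxins, such as Pex26 at 15.8 and Pex10 at 11.5. Acaa1b took the fifth place in KO, at 91.6 CPM per kilobase, against place 18 in WT, at 15.8, but without KO 3 its KO mean was 44.4 and its place 10. Far1 took place 29 in KO, at 5.26, against place 21 in WT, at 8.97.

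The medians of the peroxins and of the pooled lipid genes differed little. The median log2 fold change was 0.66 for the 13 peroxins and 0.73 for the 21 lipid genes, and their ranges were 0.28 to 0.95 and -0.77 to 2.54. The lipid groups differed, with medians of 0.86 (β-oxidation), 0.86 (α-oxidation), 0.59 (membrane transport), 0.35 (acyl-CoA export) and -0.28 (ether lipid). At an unadjusted p under 0.05, 12 peroxins and 14 lipid genes were higher, against 12.3% of all genes. Total counts alone gave 5 and 10, against 3.62%. The mean level of the peroxins varied less between WT libraries than that of the lipid genes. In KO the 2 spreads were nearer each other, and the difference in spread was not tested. The peroxins' mean log2 CPM was 5.92 ± 0.198 in KO and 5.26 ± 0.0721 in WT. For the lipid genes it was 6.60 ± 0.246 in KO and 5.93 ± 0.211 in WT.

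The counts of the further lists stand beside 12.3% of all genes higher and 9.51% lower. With total counts alone the shares of all genes were 3.62% and 25.4%. A list of 26 other peroxisomal lipid genes had 25 measured. Of these, 18 were higher in KO and 0 lower at an unadjusted p under 0.05, with a median of 1.02. In this list 14 were higher with total counts alone. Its leading members were Nudt7 (0.86, SE 0.16) and Nudt19 (1.02, SE 0.24), which cleave coenzyme A compounds in peroxisomes, Eci2 (0.79, SE 0.15), an enoyl-CoA isomerase, and Acaa2 (1.37, SE 0.27), which is the mitochondrial thiolase.

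Among 22 other matrix and membrane genes, 18 were measured, 11 were higher and 0 lower, with a median log2 fold change of 0.53, and with total counts alone 6 were higher and 1 lower. Tysnd1 (1.00, SE 0.20) is the protease that trims imported enzymes, Ddo (0.73, SE 0.15) oxidises D-aspartate, Sod1 (0.81, SE 0.19) is superoxide dismutase, which is mostly cytosolic, and Mpv17 (0.66, SE 0.17) encodes a protein of the inner mitochondrial membrane. Of 7 genes of later ether lipid steps and ether lipid breakdown, 1 was higher and 0 lower, with a median of 0.08. The share higher was 14.3%, near the 12.3% of all genes. With total counts alone 1 was higher and 1 lower, with a median of -0.25. The higher gene was Chpt1, a choline phosphotransferase, at 1771 ± 240 CPM in KO and 886 ± 221 CPM in WT (1.00, SE 0.24). Agmo (0.60), Selenoi (-0.16) and Tmem86b (-0.20) did not pass with TMM. None of these genes passed after adjustment over all genes with edgeR.

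Of 13 genes for PPARs, their partners and coactivators, 4 were higher and 0 lower at an unadjusted p under 0.05, with a median log2 fold change of 0.40, and with total counts alone none was, with a median of 0.11. Ppara, which encodes PPARα, had 116, 115 and 157 CPM in KO 1 to KO 3, against 60.3, 12.7, 19.9 and 88.2 CPM in WT 1 to WT 4, a log2 fold change of 1.51 (SE 0.60, edgeR adjusted p = 0.200). WT 1 and WT 4 were again above WT 2 and WT 3, as they were for Ehhadh and Hacl1. This order was not particular to these genes. The brown and beige marker sum was 569, 189, 195 and 1056 CPM in WT 1 to WT 4. The white adipocyte marker sum was 13830, 9657, 9387 and 14321 CPM, while the other marker sums did not have this order. What sets the order was not tested. The other higher genes of the 13 were Esrra (0.71, SE 0.20), an estrogen-related receptor of energy metabolism, Rxrg (0.55, SE 0.20), a PPAR partner, and Nr1d1 (0.63, SE 0.25), a clock repressor. Pparg, the adipocyte PPAR, had 0.20 (SE 0.37, and -0.14 with total counts alone) and did not pass.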

How the data were processed

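RNA-seq of inguinal white fat gave 3 KO and 4 WT libraries, grouped by their titles. The authors deposited raw read counts per Entrez gene, per the file headers, with totals of 49775077 to 60241436. Per the submitters' processing notes they used bcl2fastq 2.20.0, Trimmomatic, HISAT2 2.1.0, StringTie 1.3.4d and DESeq2 with build mm10. Not given in the sources used here were the gene models, how reads were counted and the strand setting.

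Symbols came from a RefSeq table of GRCm38.p6, where 29444 of 29517 identifiers matched. Genes that passed filterByExpr (minimum count 10) were scaled by TMM and tested KO against WT in R 4.3.3 with edgeR 4.0.16 (quasi-likelihood, no covariate, Benjamini-Hochberg adjustment over 19185 genes). A script test on simulated counts was also run. The unadjusted threshold was 0.05. Ratios of related genes were taken as log2 of CPM plus 0.5. They were tested with exact permutations and adjusted over 5 ratios, of which 4 are given. Alternatives used limma 3.58.1 and DESeq2 1.42.0, other scalings and filters, and libraries left out. Within a group no 2 libraries agreed within sampling noise (chi-square per degree of freedom 105 or more). P-values set the difference between KO and WT against the spread between these libraries. Since the number of animals per library is not given, that spread need not be one between single animals.

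The members, the lists and the tests were chosen with earlier results of these data known. Given in every library were up to 4 members of each role group with the smallest p, both genes of each ratio and any lower member. Up to 4 genes of each further list were named by smallest p, and other genes were chosen after their values were seen (Pex3 and Pex2 library values, Pparg). A planned search of protein targeting signals was not run, since protein sequences were not used here. Some results on other genes of the lists are not reported here.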

Additional observations from a re-analysis of the deposited data

Results flagged for a closer look

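In each of the 34 genes the 4 WT libraries were searched for a single library far from the rest, by the gap to its neighbour over the range (Dixon's test at the 95% level). Chance marks about 1 in 20 such groups, and 3 were marked. WT 1 stood high for Decr2, at 24.0 CPM, WT 3 for Pxmp2, at 22.6 CPM, and WT 2 for Pex2, at 39.0 CPM. Decr2 was higher in KO in all 16 settings, and Pex2 and Pxmp2 did not pass the unadjusted threshold with all libraries.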

How the results depend on the processing

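Scaling by total counts alone gave 15 higher and 2 lower members, a peroxin median log2 fold change of 0.33 and a lipid gene median of 0.41, against 26, 1, 0.66 and 0.73. It turned the sign of Crot (-0.053), Acox3 (-0.25), Abcd2 (-0.21) and Pex2 (-0.053), none of them called. Acox3 also turned without WT 2 (-0.032, in a range of -0.032 to 0.126 over single libraries left out), and without WT 2 and WT 4 together, an alternative chosen after seeing the data, Acox3 (-0.0053) and Abcd2 (-0.086) turned and 22 members were higher. Leaving out 1 library at a time gave 21 to 27 higher and 1 to 2 lower members, peroxin medians of 0.55 to 0.83, lipid gene medians of 0.57 to 0.91 and Tm4sf5 values of -1.85 to -1.07, whose unadjusted call ended without KO 1, KO 2, WT 2 or WT 3. The lowest count of higher members, 21, came without KO 1. In that setting 1383 of 19924 genes tested were higher, against 2363 of 19185 with all libraries. The ratios of related genes kept their direction, except Pex11a over Pex11g without KO 1 (0.0035), and with a library left out too few splits remain for p under 0.05. With the replicate number as a block 24 members were higher, with medians of 0.71 and 0.74. Libraries of the same number did not deviate together (correlations of 0.22, -0.17 and -0.02), so numbers were not taken as pairs. The other settings (DESeq2-type size factors, both other filters, DESeq2, limma-voom) gave 25 or 26 higher and 1 lower member. In all, 14 members were higher and Far1 was lower in every setting, with Tm4sf5 removed by the filter of 1 CPM in 3 libraries. The cause of these shifts was not tested. At least 363 counts per library for every member leave little counting error, while 3 KO libraries limit the precision.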

Other observations

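Genes that divide peroxisomes together with mitochondria showed smaller differences than the peroxins in these libraries, by their medians. Of 6 measured, 3 were higher in KO at an unadjusted p under 0.05 and 0 were lower, with a median log2 fold change of 0.30, but with total counts alone 0 were higher and the median was -0.025. Mief2 (0.70, SE 0.18), Mief1 (0.31, SE 0.12) and Mff (0.34, SE 0.15), which recruit the division GTPase to membranes, passed, Fis1 (0.28, SE 0.16), another adaptor, did not, and the GTPase gene Dnm1l, chosen after its value was seen, had -0.02 (SE 0.13).

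Of 9 measured genes of autophagy that can act on peroxisomes, 4 were higher and 0 lower, with a median log2 fold change of 0.44, but with total counts alone 0 were higher and 1 was lower, with a median of 0.11. They were Map1lc3a (0.78, SE 0.22), Gabarapl1 (0.76, SE 0.25) and Gabarap (0.44, SE 0.15), which coat the autophagosome, and Pink1 (0.79, SE 0.24), a kinase of mitochondrial quality control. Nbr1, a receptor for peroxisomes marked for breakdown and likewise chosen after its value was seen, had 0.18 (SE 0.19). Across the 34 peroxisomal genes KO 1 was the highest KO library for 28, while among WT libraries WT 1 was highest for 14 and WT 4 for 13.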
